A study of Mus musculus with 12 samples.

Results

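The epidermal growth factor (EGF) receptor family and its ligands were followed in cultured oligodendrocyte progenitor cells by RNA-seq, through 10 genes taken by symbol from the 18876 genes listed in any library. They were 6 ligands (Areg, Ereg, Btc, Hbegf, Tgfa and Nrg1), 3 receptors (Egfr, Erbb2 and Erbb3) and Errfi1, an intracellular inhibitor of the receptors. The cells were primary oligodendrocyte progenitors from the brain of wild-type mice, with no age given, and each group had 3 libraries after 12 h of treatment. The stattic group received stattic (2.5 µM) on top of IL-10 (10 ng/mL) and hemin (50 µM), the IL-10 group received IL-10 and hemin at those doses, the hemin group hemin without the others, and the vehicle group DMSO. Hemin is heme with its iron oxidised, IL-10 an anti-inflammatory cytokine whose receptor activates STAT3, and stattic a small-molecule inhibitor of STAT3. No group received IL-10 or stattic without hemin, so their effects could be compared only on top of it. Whether replicates were separate cultures or animals is not stated, so p-values measure only the spread between these libraries, which may be technical.

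EGF family ligands are made as membrane-anchored precursors, are cut loose by metalloproteases of the ADAM family, and bind receptors that pair up and phosphorylate each other. Egfr binds amphiregulin (Areg), epiregulin (Ereg), betacellulin (Btc), heparin-binding EGF-like growth factor (Hbegf) and transforming growth factor alpha (Tgfa). Erbb3 and Erbb4 bind neuregulins such as the product of Nrg1, and Erbb2 has no known ligand of its own and acts as a partner. Signals run largely through the RAS-ERK and PI3K-AKT pathways, and in the oligodendrocyte lineage EGF receptor and neuregulin signals are known to act on the growth, survival and differentiation of progenitors.

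Expected counts summed to 9404448 to 10266653 per library over 15051 to 16899 listed genes, and all 10 genes were listed and passed the low-count filter, among 13967 tested genes. Their expected counts were whole numbers in every library (tolerance 0.005), so none of them held a fractional share of a read. Stattic replicate 3 and hemin replicate 1 stood apart, in that short transcripts were over-represented. Of 5 classes of genes by transcript length, the shortest lay a median of 1.09 and 0.45 log2 units above the vehicle mean there, against 0.04 to 0.27 in the other hemin-treated libraries and -0.05 to 0.06 in vehicle libraries. Oligodendrocyte lineage markers (Pdgfra, Cspg4, Olig1, Olig2, Sox10, Gpr17, Mbp and Cnp) were present in every group. Summed over these 8 genes they reached 1230 to 7390 CPM (counts scaled by library size and TMM factor) in the stattic group, 1120 to 1940 CPM in the IL-10 group, 960 to 1990 CPM in the hemin group and 5320 to 6420 CPM in the vehicle group. Of these 8, 3 were called lower than vehicle in the stattic group, 5 in the IL-10 group and 3 in the hemin group, by the test described below, which called 10.2%, 8.81% and 9.15% of all genes lower there and 14.7%, 12.1% and 11.7% higher. Astrocyte markers summed to 922 to 4050 CPM in the 9 hemin-treated libraries and 2370 to 6430 CPM in the vehicle group, with 1 of 9 called lower in each treated group. Neuronal markers summed to 817 to 1450 CPM in the hemin-treated libraries and 867 to 1110 CPM in the vehicle group, with 4 of 10 called higher in each treated group. None of the markers of these 3 lists was at 0 in a whole group. The highest oligodendrocyte lineage sum, 7390 CPM, was in stattic replicate 2, where Mbp stood at 5560 CPM. Cspg4, Olig1 and Olig2 were at their lowest of all libraries there.

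The hemin-treated groups differed from vehicle in which ligand genes were expressed. Areg and Ereg, barely detected in the vehicle group, rose in all 3 hemin-treated groups, Tgfa fell in all 3, and Errfi1 rose in all 3, while none of the receptors passed the test. A gene was called when its Benjamini-Hochberg adjusted p, from edgeR's quasi-likelihood test over all 13967 genes, was under 0.05. In the stattic group, 3 of the 10 genes were called higher and 1 lower, where 14.7% of all genes were called higher and 10.2% lower. In the IL-10 group the counts were again 3 and 1, against 12.1% and 8.81% of all genes. In the hemin group they were also 3 and 1, against 11.7% and 9.15%. The median log2 change of the 10 genes was 0.81 in the stattic group (0.0987 over all tested genes), 0.805 in the IL-10 group (0.00323) and 1.01 in the hemin group (0.0312). Of the 10, 3 lay wholly above vehicle in CPM in the stattic group, 3 in the IL-10 group and 5 in the hemin group, where 21.5%, 24.9% and 25.6% of all genes did. Wholly below vehicle were 1, 2 and 1 of the 10 in the stattic, IL-10 and hemin groups, against 19.6%, 24.3% and 24.5% of all genes. The 3 comparisons share the same vehicle libraries.

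**Figure D1:**
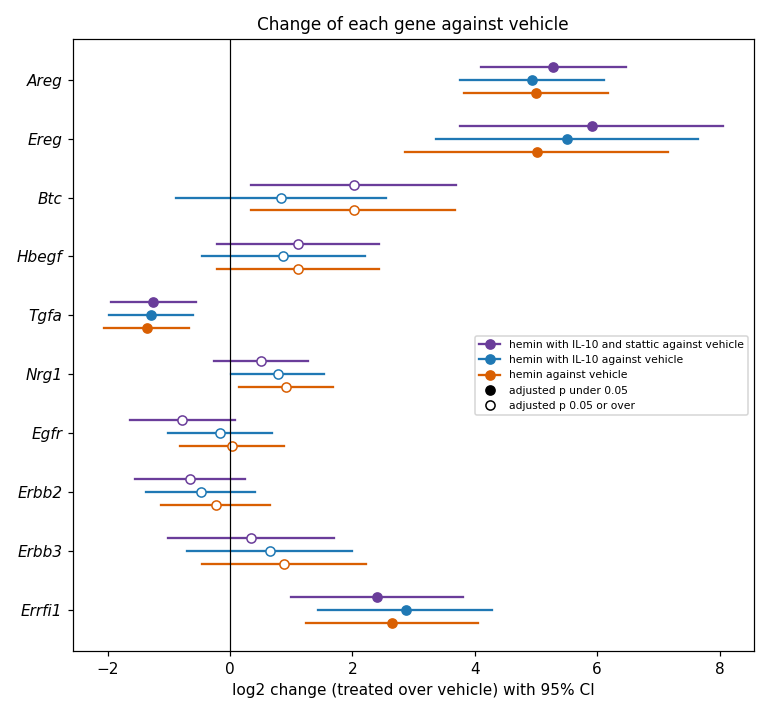
Log2 change of each of the 10 genes against vehicle (x axis, treated over vehicle, with 95% confidence intervals) in each hemin-treated group, by edgeR's quasi-likelihood fit to 12 libraries. Filled points (adjusted p under 0.05) are those of Areg, Ereg, Tgfa and Errfi1 in all 3 comparisons.

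Areg encodes amphiregulin, a ligand of Egfr known from epithelial growth and tissue repair. It stood at 5.97, 10.8 and 9.96 CPM in the stattic group, 5.50, 8.63 and 6.97 CPM in the IL-10 group, 6.35, 8.71 and 6.91 CPM in the hemin group, and 0.0928, 0.457 and 0.0952 CPM in the vehicle group. Every hemin-treated library lay above every vehicle library, whose expected counts were 1, 5 and 1. Areg was higher by 5.28 log2 units in the stattic group (SE 0.54, adjusted p = 0.000189), by 4.94 in the IL-10 group (SE 0.54, adjusted p = 0.00032) and by 5.0 in the hemin group (SE 0.54, adjusted p = 0.000227), in edgeR's test. As a ratio of summed counts scaled to library size, it was 40.8 times the vehicle level in the stattic group (exact interval 19.5 to 103), 32.4 times in the IL-10 group (15.5 to 81.7) and 33.6 times in the hemin group (16.1 to 84.7). The vehicle libraries held 7 counts in all, and the intervals cover counting error only.

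Ereg encodes epiregulin, another Egfr ligand. Its level was 10.2, 6.81 and 1.92 CPM in the stattic group, 8.96, 3.90 and 1.51 CPM in the IL-10 group, 3.27, 4.61 and 2.30 CPM in the hemin group, and 0.0928, 0.183 and 0 CPM in the vehicle group. The groups did not overlap with vehicle, and the replicate 3 library was the lowest of its group each time, vehicle included. Vehicle libraries held 1, 2 and 0 expected counts, so the fitted changes depend on a prior count. These were 5.91 log2 units in the stattic group (SE 0.99, adjusted p = 0.00261), 5.51 in the IL-10 group (SE 0.99, adjusted p = 0.00378) and 5.01 in the hemin group (SE 0.99, adjusted p = 0.00584). The ratio of scaled counts was 69.7 with an exact interval of 23.5 to 341 in the stattic group, 50.6 (16.9 to 248) in the IL-10 group, and 36.4 (12.1 to 179) in the hemin group. Areg and Ereg stayed called in each of the 12 fits that left out 1 library, in all 3 comparisons. For Ereg, limma on log2(FPKM + 1), a scale that understates changes of low genes, gave an adjusted p of 0.0525 in the IL-10 group and 0.091 in the hemin group.

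RNA was taken from bulk cultures, in which more cells of a type and more RNA per cell cannot be told apart. Markers of microglia and macrophages, which are known sources of such ligands, summed over 14 genes to 80.6 to 176 CPM in the stattic group, 27.1 to 61.0 CPM in the IL-10 group, 55.8 to 190 CPM in the hemin group and 9.24 to 38.6 CPM in the vehicle group. Of the 13 tested, 7 were called higher than vehicle in the stattic group (14.7% of all genes), 1 in the IL-10 group (12.1%) and 4 in the hemin group (11.7%), and none was at 0 in a whole group. Areg averaged 8.91 ± 2.57 CPM in the stattic group, 7.04 ± 1.57 CPM in the IL-10 group and 7.32 ± 1.24 CPM in the hemin group (SD, n = 3 each). Fibroblast and vascular markers summed to 51.0 to 133 CPM in the stattic group, 45.2 to 99.6 CPM in the IL-10 group, 94.4 to 417 CPM in the hemin group and 11.3 to 28.1 CPM in the vehicle group, with 5, 3 and 7 of 11 tested called higher in the treated groups. Epithelial markers summed to 18.4 to 93.7 CPM in the stattic group, 10.3 to 47.4 CPM in the IL-10 group, 19.4 to 213 CPM in the hemin group and 4.57 to 13.3 CPM in the vehicle group, and of 3 tested 1, 0 and 1 were called higher. Most of the highest epithelial sums was Ttr. It gave 74.4 of 93.7 CPM in stattic replicate 3, 33.1 of 47.4 in IL-10 replicate 2 and 199 of 213 in hemin replicate 2. In hemin replicate 1, Col3a1 gave 208 of the 417 CPM of fibroblast and vascular markers. The keratins Krt5, Krt8, Krt14, Krt18 and Krt19 were at 0 in all vehicle libraries, and none passed 1.49 CPM in a treated library. Krt14 was at 0 in all libraries in the IL-10 group. The part of these cell types in the ligand values was not tested.

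Ereg and Areg lie next to each other on chromosome 5 of the RefSeq annotation (GRCm38.p6), between Epgn and Btc, and the 3 other annotated genes in between (Gm19610, Gm23092 and Gm19619) were listed in no library. Epgn encodes epigen, an Egfr ligand outside the 10 genes. It had 9, 24 and 13 expected counts in the stattic group, 5, 19 and 34 in the IL-10 group, 12, 38 and 38 in the hemin group, and 0, 1 and 1 in the vehicle group. Its groups did not overlap with vehicle, and its log2 changes were 4.49 in the stattic group (SE 0.98, adjusted p = 0.0086), 4.75 in the IL-10 group (SE 0.98, adjusted p = 0.00716) and 5.31 in the hemin group (SE 0.97, adjusted p = 0.00393), all called. Over its 2 vehicle counts, the ratio of scaled counts was 27.0 (exact interval 7.07 to 230) in the stattic group, 32.6 (8.63 to 276) in the IL-10 group and 47.5 (12.8 to 399) in the hemin group. The call for Epgn was lost in limma on log2(FPKM + 1) in the stattic group (adjusted p = 0.0717) and in the IL-10 group (0.0514).

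Btc, the fourth ligand gene of that stretch, encodes betacellulin, which binds Egfr and Erbb4. It stood at 3.88, 2.62 and 0.72 CPM in the stattic group, 1.51, 1.16 and 0.505 CPM in the IL-10 group, 3.87, 2.25 and 1.10 CPM in the hemin group, and 0.464, 1.10 and 0.19 CPM in the vehicle group. Only the hemin group lay wholly above vehicle in CPM, and in FPKM it did not (0.42 in hemin replicate 3 and 0.43 in vehicle replicate 2). Within each group, vehicle included, replicate 3 was the lowest. Its log2 changes of 2.02 in the stattic group (SE 0.77, adjusted p = 0.0726), 0.83 in the IL-10 group (SE 0.79, adjusted p = 0.485) and 2.02 in the hemin group (SE 0.77, adjusted p = 0.0806) were not called. Without stattic replicate 3 the adjusted p was 0.0321 in the stattic group and 0.0489 in the hemin group. DESeq2 gave 0.0414 in the stattic group and 0.0464 in the hemin group.

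**Figure D2:**
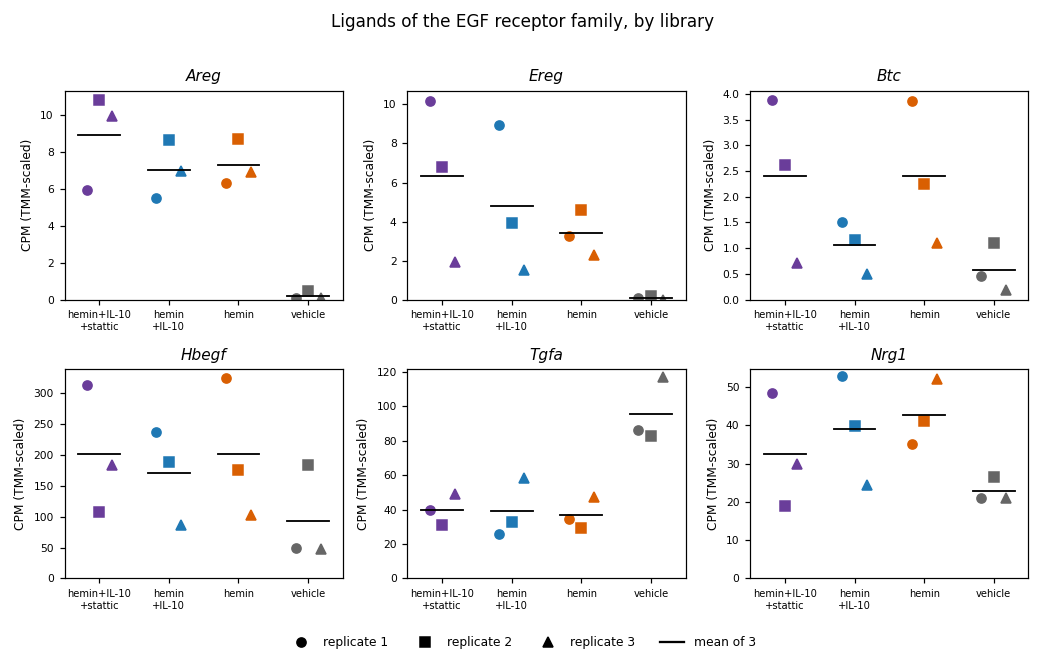
Level of the 6 ligand genes in each library, in CPM scaled by TMM factors (y axis), by group (x axis), with symbols for the replicate number and a line at the mean of 3. Areg and Ereg lie above all vehicle libraries in each hemin-treated library, Tgfa lies below them, and Hbegf overlaps with vehicle replicate 2 at 184 CPM.

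Hbegf encodes a ligand that binds Egfr and Erbb4 and is known as an injury-induced gene in the brain. It had the highest mean FPKM (fragments per length of transcript and per library depth) of the 10 genes in every group, in the vehicle group through replicate 2. The levels were 313, 107 and 184 CPM in the stattic group, 237, 188 and 86.3 CPM in the IL-10 group, 324, 176 and 103 CPM in the hemin group, and 48.7, 184 and 47.2 CPM in the vehicle group. All treated groups overlapped with vehicle, whose replicate 2 was higher than its other libraries and within the range of the treated ones. Log2 changes of 1.11 in the stattic group (95% CI -0.22 to 2.44, adjusted p = 0.201), 0.87 in the IL-10 group (-0.45 to 2.20, adjusted p = 0.333) and 1.11 in the hemin group (-0.22 to 2.44, adjusted p = 0.216) were not called. Without vehicle replicate 2 they were 2.08 in the stattic group (adjusted p = 0.0417), 1.85 in the IL-10 group (adjusted p = 0.0648) and 2.07 in the hemin group (adjusted p = 0.0475). Leaving out that library was the only 1 of the 12 such fits that called Hbegf in the stattic and hemin groups, and no such fit called it in the IL-10 group.

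Tgfa encodes transforming growth factor alpha, a ligand of Egfr made by glia among other cells. It stood at 39.7, 31.3 and 49.2 CPM in the stattic group, 25.9, 32.6 and 58.5 CPM in the IL-10 group, 34.6, 29.2 and 47.3 CPM in the hemin group, and 86.4, 82.7 and 117 CPM in the vehicle group. All 9 hemin-treated libraries lay below all vehicle libraries. Tgfa fell by 1.25 log2 units in the stattic group (SE 0.32, adjusted p = 0.0162), by 1.29 in the IL-10 group (SE 0.32, adjusted p = 0.016) and by 1.36 in the hemin group (SE 0.32, adjusted p = 0.0125).

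The call for Tgfa was lost in some of the fits that left out 1 library. In the stattic group this happened without vehicle replicate 3 (adjusted p = 0.0617) and stattic replicate 2 (0.0516). In the IL-10 group it happened without vehicle replicate 3 (0.0627), IL-10 replicate 1 (0.0586) and IL-10 replicate 2 (0.0674). In the hemin group it happened without hemin replicate 2 (0.057). A correction for the trend with transcript length gave -0.96 (adjusted p = 0.0551) in the stattic group. The oligodendrocyte lineage marker sums given above lay below vehicle in the IL-10 and hemin groups and overlapped with it in the stattic group. That overlap came from stattic replicate 2, where Mbp stood at 5560 CPM. In the stattic group, Pdgfra, Olig1, Olig2, Sox10 and Gpr17 lay wholly below vehicle, and Cspg4, Mbp and Cnp overlapped with it. The part of these markers in the fall of Tgfa was not tested.

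Nrg1 encodes neuregulin 1, a ligand of Erbb3 and Erbb4 known for its part in glial development. Its level was 48.5, 18.9 and 29.8 CPM in the stattic group, 52.9, 39.7 and 24.4 CPM in the IL-10 group, 35.0, 41.0 and 52.1 CPM in the hemin group, and 21.0, 26.5 and 20.9 CPM in the vehicle group. The hemin libraries all lay above vehicle, and the other 2 groups overlapped with it. None of the log2 changes of 0.51 in the stattic group (adjusted p = 0.309), 0.78 in the IL-10 group (adjusted p = 0.138) and 0.91 in the hemin group (adjusted p = 0.0874) was called. In the hemin group, 4 alternatives called it, with adjusted p of 0.0425 and 0.0406 in limma on log2(FPKM + 1) and log2(FPKM + 0.1), 0.0152 in a fit to the hemin and vehicle libraries alone, and 0.0335 with the length trend corrected.

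The makeup of the ligand pool was compared per transcript length. Over 8 ligands (the 6 above with Egf and Epgn), summed FPKM was 158, 73.0 and 89.9 in the stattic group, 121, 109 and 67.7 in the IL-10 group, 162, 102 and 79.9 in the hemin group, and 48.5, 113 and 54.9 in the vehicle group. The sums overlapped between groups, and vehicle replicate 2 was the highest of its group at 113. Tgfa made up a mean of 8.25% of the sum in the stattic group, 10.3% in the IL-10 group, 8.31% in the hemin group and 38.1% in the vehicle group. The shares of Tgfa overlapped between the IL-10 group, with 19.8% in replicate 3, and the vehicle group, with 17.9% in replicate 2. Areg made up 8.43% in the stattic group, 6.97% in the IL-10 group, 6.53% in the hemin group and 0.259% in the vehicle group. Hbegf took 73.4% in the stattic group, 71.5% in the IL-10 group, 73.1% in the hemin group and 55.4% in the vehicle group, with single vehicle libraries at 47.8%, 77.4% and 41.0%. In the vehicle libraries other than replicate 2, Tgfa and Hbegf were near each other, at 21.4 and 23.2 FPKM in replicate 1 and 28.6 and 22.5 FPKM in replicate 3.

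**Figure D3:**
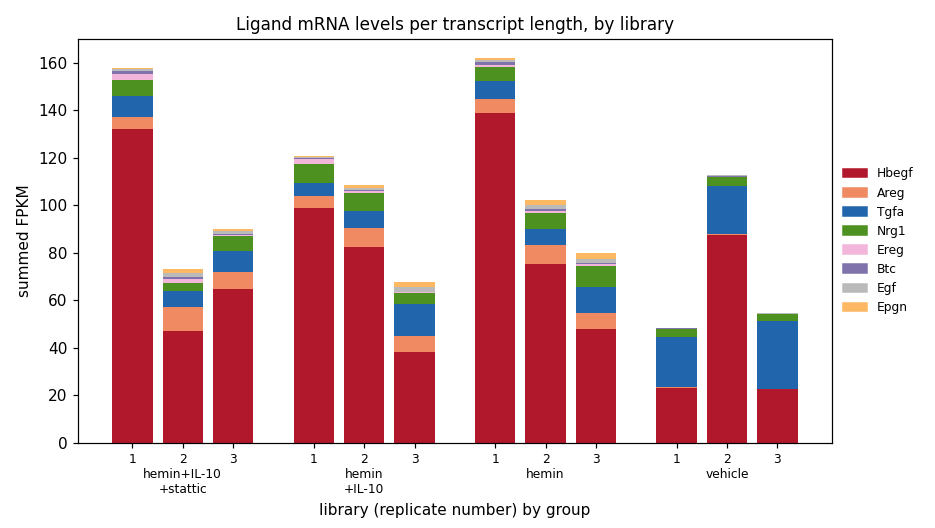
Summed FPKM of 8 ligand genes (y axis) in each library (x axis, by group and replicate number), with a coloured segment for each ligand. Hbegf is the largest segment in all hemin-treated libraries, and Tgfa takes 17.9% to 52.2% of the sum in the vehicle group.

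Among the receptors, Egfr is the one bound by most of these ligands. It stood at 105, 38.2 and 137 CPM in the stattic group, 138, 118 and 173 CPM in the IL-10 group, 172, 126 and 193 CPM in the hemin group, and 131, 217 and 131 CPM in the vehicle group. Groups overlapped, and stattic replicate 2 was the lowest library. Of the 12 libraries, it also had the highest Mbp (5560 CPM) and Cnp (1510 CPM) and the lowest Slc1a2 (23.5 CPM), Slc1a3 (157 CPM) and Aldh1l1 (36.3 CPM). Its Cspg4 (7.23 CPM), Olig1 (77.1 CPM) and Olig2 (23.1 CPM) were the lowest of the 12 as well, so its oligodendrocyte lineage markers went both ways. The other astrocyte markers were not lowest there, and the part of its makeup in its receptor levels was not tested. Egfr was not called, with log2 changes of -0.78 in the stattic group (95% CI -1.63 to 0.08, adjusted p = 0.165), -0.16 in the IL-10 group (-1.01 to 0.69, adjusted p = 0.806) and 0.03 in the hemin group (-0.81 to 0.88, adjusted p = 0.964). The last value was -0.07 with library totals in place of TMM, so it has no settled direction, and the intervals do not show that levels were equal.

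Erbb2 encodes the ligandless partner receptor. It stood at 14.6, 3.98 and 15.6 CPM in the stattic group, 11.3, 14.6 and 12.5 CPM in the IL-10 group, 18.2, 11.5 and 16.0 CPM in the hemin group, and 20.9, 17.7 and 15.1 CPM in the vehicle group. Stattic replicate 2 was again the lowest, and the IL-10 group lay below vehicle without overlap. No log2 change was called, at -0.66 in the stattic group (95% CI -1.55 to 0.24, adjusted p = 0.261), -0.48 in the IL-10 group (-1.37 to 0.41, adjusted p = 0.433) and -0.23 in the hemin group (-1.12 to 0.65, adjusted p = 0.721).

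Erbb3, a neuregulin receptor with little kinase activity of its own, was the least abundant of the 3. Its level was 3.04, 3.25 and 2.52 CPM in the stattic group, 3.24, 3.69 and 3.94 CPM in the IL-10 group, 3.07, 4.71 and 5.01 CPM in the hemin group, and 0.742, 5.30 and 0.857 CPM in the vehicle group. Vehicle replicate 2 was higher than every other library, and the other 2 vehicle libraries were lower than every hemin-treated one. Its log2 changes of 0.35 in the stattic group (adjusted p = 0.711), 0.65 in the IL-10 group (adjusted p = 0.489) and 0.88 in the hemin group (adjusted p = 0.332) were not called. Without vehicle replicate 2 they were 1.87 in the stattic group (adjusted p = 0.0231), 2.17 in the IL-10 group (adjusted p = 0.0152) and 2.40 in the hemin group (adjusted p = 0.0107), all called. Vehicle replicate 2 was also the highest vehicle library in CPM for Areg, Ereg, Btc, Hbegf, Nrg1, Egfr and Errfi1, but not for Tgfa and Erbb2.

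Erbb4, a neuregulin receptor outside the 10 genes, was not called, with log2 changes of -0.43 in the stattic group (adjusted p = 0.661), -0.22 in the IL-10 group (0.845) and 0.22 in the hemin group (0.841). Of the FPKM summed over the 4 receptors, Egfr made up a mean of 61.6% in the stattic group, 72.4% in the IL-10 group, 69.7% in the hemin group and 66.6% in the vehicle group. Its share was 38.9% in stattic replicate 2, where Erbb4 made up 52.3%.

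**Figure D4:**
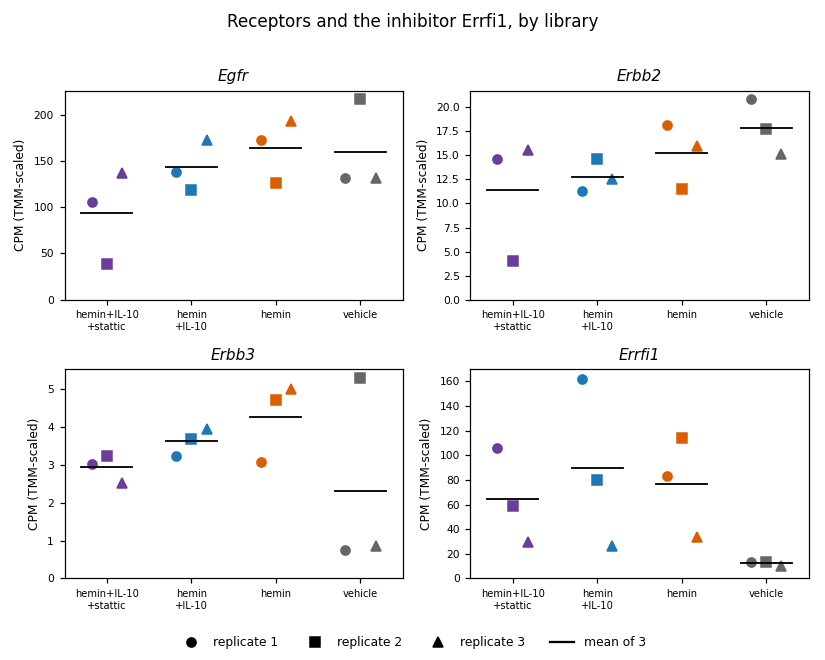
Level of Egfr, Erbb2, Erbb3 and the inhibitor Errfi1 in each library, in CPM scaled by TMM factors (y axis), by group (x axis), with symbols for the replicate number and a line at the mean of 3. Errfi1 is above vehicle in all 9 hemin-treated libraries, and the receptors overlap with vehicle except Erbb2 in the IL-10 group.

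Errfi1 (Mig6) encodes a feedback inhibitor that binds the kinase domain of active Egfr and Erbb2. It stood at 106, 58.4 and 29.9 CPM in the stattic group, 162, 80.0 and 26.1 CPM in the IL-10 group, 83.0, 114 and 33.6 CPM in the hemin group, and 13.1, 13.7 and 9.90 CPM in the vehicle group. No hemin-treated library reached down to vehicle, and replicate 3 was the lowest in each group, vehicle included. Errfi1 was higher by 2.40 log2 units in the stattic group (SE 0.64, adjusted p = 0.0197), 2.87 in the IL-10 group (SE 0.65, adjusted p = 0.0114) and 2.65 in the hemin group (SE 0.65, adjusted p = 0.015).

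Of the 12 fits that left out 1 library, some lost the call for Errfi1. In the stattic group it was lost without vehicle replicate 1 (adjusted p = 0.0669), 2 (0.0561) or 3 (0.0743) and without stattic replicate 1 (0.0534), and also in limma on log2(FPKM + 1) (0.0519). In the IL-10 group it was lost without vehicle replicate 3 (0.0506). In the hemin group it was lost without vehicle replicate 1 (0.0553) or 3 (0.0628) and without hemin replicate 2 (0.0617).

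Promoter sequences (250 bases before to 50 after the start, RefSeq, GRCm38.p6) matched 6 of the 10 genes, with 2 starts for Errfi1. Those of Areg and of the downstream start of Errfi1 are shown because both genes rose and both hold the cyclic AMP response element (CRE, letters TGACGTCA, the same on both strands), a binding site of CREB and ATF factors. Areg lies on the + strand at chr5:91139349-91139648 and Errfi1 on the + strand at chr4:150854820-150855119, and capitals mark the CRE.
Areg promoter: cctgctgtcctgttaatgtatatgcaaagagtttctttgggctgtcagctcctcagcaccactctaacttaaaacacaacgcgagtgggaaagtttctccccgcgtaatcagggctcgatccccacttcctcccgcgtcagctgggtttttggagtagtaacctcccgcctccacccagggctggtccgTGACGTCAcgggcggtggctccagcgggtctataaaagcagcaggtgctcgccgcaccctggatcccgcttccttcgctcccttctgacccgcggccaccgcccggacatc
Errfi1 promoter: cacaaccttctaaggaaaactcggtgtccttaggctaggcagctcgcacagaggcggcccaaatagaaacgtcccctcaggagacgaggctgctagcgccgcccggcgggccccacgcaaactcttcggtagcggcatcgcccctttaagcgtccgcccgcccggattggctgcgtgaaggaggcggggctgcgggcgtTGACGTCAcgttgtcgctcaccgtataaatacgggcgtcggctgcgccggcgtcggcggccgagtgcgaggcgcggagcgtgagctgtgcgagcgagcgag
The CRE began at -61 relative to the start of Areg and at -51 relative to that of Errfi1. It was in none of the other 5 sequences (Btc, Egfr, Erbb2, Tgfa and the upstream start of Errfi1). Of the 32851 promoters of the table, 1.79% held it. No sequence was matched for Ereg, which also rose, or for Hbegf, Nrg1 and Erbb3, so the CRE was not looked for there. The letters of AP-1 (TGANTCA), the antioxidant response element (TGACNNNGC), a STAT site (TTCNNNGAA) and a heat shock element (GAANNTTC) were searched on both strands and were in none of the 7 sequences. They were in 7.81%, 12.4%, 8.3% and 7.86% of all promoters. An NF-kB motif was in 50.8% of all promoters and in the sequences of Areg, Btc, Egfr, Erbb2, Tgfa and the downstream start of Errfi1. A match in these letters is a description and no evidence of binding.

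Between the hemin-treated groups, none of the 10 genes passed the test. In the stattic group against the IL-10 group, which bears on STAT3 inhibition, none was called, the smallest adjusted p was 0.921, and the log2 changes ran from -0.61 (Egfr) to 1.19 (Btc). In the stattic group against the hemin group they ran from -0.81 (Egfr, 95% CI -1.66 to 0.05) to 0.89 (Ereg, -0.61 to 2.39), with adjusted p of 1 throughout. In the IL-10 group against the hemin group, which bears on IL-10, they ran from -1.18 (Btc, 95% CI -2.78 to 0.42) to 0.49 (Ereg, -1.01 to 2.00), with adjusted p of 0.999 throughout. The groups of all 10 genes overlapped in each of these comparisons, where 5.36%, 5.16% and 8.68% of all genes did not overlap, and no unadjusted p of the 10 was under 0.05. Over all genes, edgeR called 0 (0%) in each comparison, with 523 (3.74%), 481 (3.44%) and 337 (2.41%) at an unadjusted p under 0.05. DESeq2 called 0 genes, 1 gene and 3 genes, none of them among the 10. With the replicate number as a block, edgeR called 1 gene higher in each of the 2 comparisons against the hemin group, again none of the 10. The 95% CI of the difference in Areg was -0.54 to 1.22 log2 units for stattic against IL-10 groups, -0.60 to 1.16 for stattic against hemin groups and -0.94 to 0.82 for IL-10 against hemin groups. Differences within those intervals could not be told apart from none. Within same-numbered pairs, Btc and Egfr were lower in the IL-10 group than in the hemin group in 3 of 3 pairs. Egfr, Erbb2 and Erbb3 were lower and Tgfa was higher in the stattic group than in the hemin group in 3 of 3 pairs. The other genes of the 10 had mixed directions in each comparison. The share of all genes with 3 of 3 pairs in 1 direction was not computed, so no difference is read from these pairs. With the replicate number as a block in edgeR, the IL-10 group differed from the hemin group by -1.17 in Btc (adjusted p = 0.864) and -0.19 in Egfr (0.94), and the stattic group differed from it by -0.86 in Egfr (0.906), all in log2 units.

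Per transcript length, the order of the 10 genes differed between vehicle and the hemin-treated groups. In the vehicle group, Hbegf (mean 44.4 FPKM), Egfr (24.4) and Tgfa (23.4) led, with overlapping ranges. Without vehicle replicate 2, where Hbegf was at 87.4 FPKM, the vehicle means were 25.0 for Tgfa, 22.9 for Hbegf and 20.6 for Egfr, and Hbegf no longer led. Over all 3 vehicle libraries, Errfi1 (4.48), Erbb2 (3.94) and Nrg1 (3.38) followed, each overlapping with the next, then Erbb3 (0.423), Btc (0.227) and Areg (0.217), likewise overlapping, and Ereg (0.0233) was last. In the hemin group, Hbegf (87.5) led, Egfr (26.2) and Errfi1 (25.7) overlapped, Tgfa (8.41), Nrg1 (7.22) and Areg (6.77) overlapped, and Erbb2 (3.11), Btc (0.863), Ereg (0.833) and Erbb3 (0.727) were lowest, the last 3 overlapping. The same 3 genes led and Erbb2, Ereg, Btc and Erbb3 were the lowest 4 in the IL-10 group and in the stattic group.

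The authors' transcript length, which is weighted by the abundance of a gene's transcripts, was compared for Nrg1, Egfr, Tgfa and Errfi1, which have several annotated transcripts. Group means were lower than vehicle for Nrg1 and Egfr only. For Tgfa the means of the treated groups were 4523 to 4553 bases, against 4484 in the vehicle group. For Errfi1 they were 3065 to 3066 bases, against 3065. For Nrg1, with 52 transcripts, it was 6731, 6008 and 3819 bases in the stattic group, 6299, 5350 and 5201 in the IL-10 group, 5864, 5947 and 6181 in the hemin group, and 6967, 7467 and 7618 in the vehicle group. All 9 hemin-treated libraries lay below all vehicle libraries. Of 10681 genes with several transcripts, 16.4% lay wholly below vehicle in the stattic group, 14.4% in the IL-10 group and 18.8% in the hemin group. The share below vehicle in all 9 libraries at once was not computed. For Egfr, with 3 transcripts, it was 6822, 6406 and 4959 bases in the stattic group, 6994, 6001 and 6594 in the IL-10 group, 6235, 5975 and 6632 in the hemin group, and 7024, 7336 and 6888 in the vehicle group. The IL-10 group overlapped with vehicle for Egfr, and the other treated groups lay below it. The lowest value of Nrg1 and of Egfr was in stattic replicate 3, the library with the largest over-representation of short transcripts, whose part in these lengths was not tested. FPKM divides by this length, so it raises Nrg1 in hemin-treated libraries relative to CPM.

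**Figure D5:**
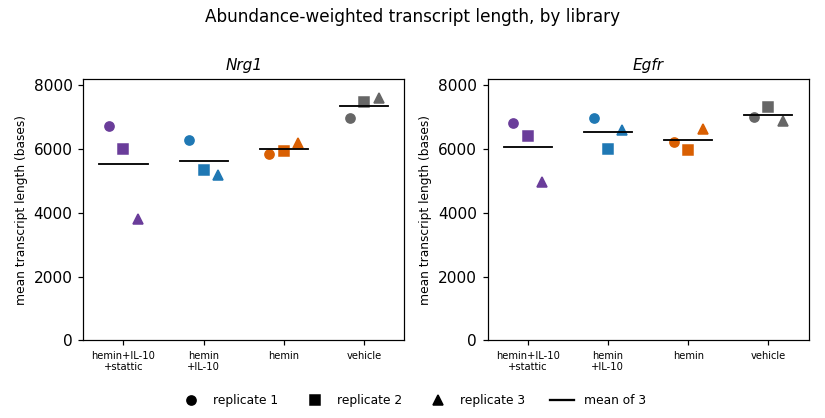
Abundance-weighted transcript length of Nrg1 and Egfr in bases (y axis) in each library, by group (x axis), with symbols for the replicate number and a line at the mean of 3. All 9 hemin-treated values of Nrg1 lie below 6967 bases, the lowest vehicle value.

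The genes whose levels ran most like each of the 10 over the 12 libraries were found by Pearson's r of log2(CPM + 1) among 11307 genes of at least 5 CPM, and since libraries share treatment this is a description only. For Areg they were Uspl1 (0.98), the heat shock gene Hspa1a (0.98) and Med26 (0.979). For Errfi1 they were the stress-response gene Sesn2 (0.99), Rnd3 (0.986) and Mrnip (0.982). For Hbegf they were Angptl2 (0.933), Pdlim7 (0.928) and the cell cycle inhibitor gene Cdkn2b (0.927). Tgfa ran most like Slitrk5 (0.977), Zfp90 (0.975) and Cstf2 (0.973), and Nrg1 like Palld (0.912), Dlc1 (0.903) and Fchsd1 (0.889). Egfr ran most like Faap100 (0.872), Suclg2 (0.858) and Cdc42ep1 (0.856), and Erbb2 like Mmp14 (0.962), the growth factor receptor gene Fgfr3 (0.948) and Nr2e1 (0.942). Ereg, Btc and Erbb3 averaged under 5 CPM and were not compared.

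Around these 10 genes, the rest of the pathway was read from 5 lists. The shares of all genes called were 14.7% higher and 10.2% lower in the stattic group, 12.1% and 8.81% in the IL-10 group, and 11.7% and 9.15% in the hemin group. Among the other ligands and receptors, 2 of 5 tested were called higher in each comparison with vehicle, Epgn (above) and Egf, the founding ligand. Egf reached at most 5.86 CPM in a library, and its log2 changes were 1.74 in the stattic group (adjusted p = 0.0294), 1.61 in the IL-10 group (0.0442) and 1.92 in the hemin group (0.0215). In the hemin group the call for Egf was lost without any 1 vehicle library and without hemin replicate 2 or 3, with adjusted p up to 0.0836. It was lost in 5 of 12 such fits in the stattic group (any 1 vehicle library, stattic replicate 2 or 3, up to 0.104). In the IL-10 group it was lost in 7 (each vehicle library, replicates 2 and 3 of the hemin group, and replicates 2 and 3 of the IL-10 group, up to 0.157). The call for Egf was also lost with library totals (0.0545 in the stattic group and 0.0621 in the IL-10 group), limma-voom (0.0522 and 0.0905), limma on log2(FPKM + 1) (0.0893 and 0.137) and on log2(FPKM + 0.1) (0.0641 and 0.113). It was lost too in the stattic group in a fit to the 2 groups alone (0.0513) and without the 2 libraries of steepest length trend (0.0539), and in the IL-10 group without the low-count filter (0.0509). Nrg2, Nrg3 and Erbb4 were not called, and Nrg4 was too low to test.

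Of 13 genes of ligand release, 2 were higher and 2 lower in the hemin group, near the shares of all genes (11.7% and 9.15%), and the median log2 change was -0.13, against 0.03 over all genes. The sheddases Adam17 and Adam10, also chosen after their values were seen, were not called (log2 change -0.36 and -0.60, adjusted p = 0.339 and 0.253). Rhbdf2, an iRhom that carries Adam17 to the cell surface, was higher by 2.87 (adjusted p = 0.0197), and the protease gene Adam8 by 1.59 (0.0383). Bace1, a protease that can cut neuregulin 1, fell by 1.91 (0.0187) and Adam12 by 1.32 (0.0191). Each of these 4 calls ended when vehicle replicate 2 or hemin replicate 2 was left out. Those of Rhbdf2 and Adam12 also ended without vehicle replicate 3 or hemin replicate 1 (adjusted p up to 0.0776 and 0.0601), and that of Bace1 without vehicle replicate 1 or hemin replicate 3 (up to 0.0729). That of Adam8 ended further without vehicle replicate 1 or 3, hemin replicate 1 or IL-10 replicate 2 (up to 0.137). Adam8 also lost its call with library totals (0.0572), limma-voom (0.0531) and limma on log2(FPKM + 1) (0.0726) and log2(FPKM + 0.1) (0.0515). Rhbdf2 lost it in limma-voom (0.0603) and limma on log2(FPKM + 1) (0.0716). Without the 2 libraries of steepest length trend, Adam8 (0.0634) and Rhbdf2 (0.0698) lost it, and with the length trend corrected Adam12 did (0.0567). In the stattic group 2 genes were higher and 1 lower, and in the IL-10 group 1 and 1.

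Of 19 other genes that regulate the receptors or the signal below them, 3 were higher and 2 lower in the hemin group. This was again near 11.7% and 9.15% of all genes, and the median log2 change was 0.13. Socs5, a suppressor of cytokine signalling that also acts on Egfr, was higher by 1.45 (adjusted p = 0.00155) and the receptor phosphatase gene Ptprk by 1.98 (0.00868), in all 12 fits that left out 1 library. Lrig3, of a family of receptor-binding membrane proteins, was higher by 1.56 (0.0256) and lost its call in 5 of those fits (those without any 1 vehicle library, hemin replicate 2 or hemin replicate 3, up to 0.099). Cbl, a ubiquitin ligase that marks Egfr for degradation, fell by 1.12 (0.0334) and lost its call in 7 (without any 1 vehicle or hemin library or IL-10 replicate 2, up to 0.128). It also lost its call with the length trend corrected (0.0674). Spred3, chosen after its values were seen, was the other gene called lower (-1.71, adjusted p = 0.0411), and lost its call without vehicle replicate 2 or 3 or any 1 hemin library (up to 0.134), in limma-voom (0.112) and with the length trend corrected (0.0527). The list had 2 higher and 3 lower in the stattic group, and 2 and 0 in the IL-10 group.

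Of 28 adaptors and kinases downstream, 1 was higher and 4 lower in the hemin group, where 11.7% and 9.15% of all genes were, with a median log2 change of -0.21. Those that fell were the phospholipase gene Plcg1 (by 0.95, adjusted p = 0.0072), the PI3-kinase subunit gene Pik3r1 (by 1.41, 0.0143), Nras (by 0.71, 0.0238) and the phosphatase gene Ptpn11 (by 0.95, 0.0248). Plcg1 kept its call in all 12 fits that left out 1 library. Pik3r1 lost it without vehicle replicate 3 or hemin replicate 1 (up to 0.054), Nras without vehicle replicate 1 or 2 or hemin replicate 2 (up to 0.111), and Ptpn11 without any 1 vehicle or hemin library (up to 0.0824). Shc1, chosen after its values were seen, was the gene called higher (1.25, adjusted p = 0.047). Its call was lost in 7 of 12 fits that left out 1 library (each vehicle library, replicates 1 and 2 of the hemin group, and replicates 1 and 2 of the IL-10 group, up to 0.222), without the libraries of steepest length trend (0.194), and with library totals (0.0598), limma-voom (0.0846) and limma on log2(FPKM + 1) (0.0875) and log2(FPKM + 0.1) (0.0822). The list had 1 higher and 4 lower in the stattic group, and 2 and 3 in the IL-10 group.

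Genes known to be induced by ERK, as well as by many other stimuli, had the most calls of the 5 lists. Of 19, 11 were called higher and 1 lower in each of the 3 comparisons, against 14.7%, 12.1% and 11.7% of all genes higher and 10.2%, 8.81% and 9.15% lower in the stattic, IL-10 and hemin groups. They had a median log2 change of 2.88 in the stattic group, 2.85 in the IL-10 group and 3.14 in the hemin group, and 11 were called higher in the hemin group in every fit that left out 1 library. Fos, an immediate early transcription factor gene, stood at 192, 182 and 243 CPM in the stattic group, 213, 244 and 127 CPM in the IL-10 group, 237, 377 and 503 CPM in the hemin group, and 14.2, 16.8 and 11.9 CPM in the vehicle group. It was higher by 3.84 log2 units in the stattic group (adjusted p = 7.49e-05), 3.76 in the IL-10 group (7.75e-05) and 4.70 in the hemin group (2.87e-05). The early genes Ier2 and Egr3 were higher in the hemin group by 3.14 (4.23e-05) and 5.52 (0.000601), and the cytokine gene Il11 by 5.08 (0.000874). Etv1, chosen after its values were seen, was the gene called lower in all 3 comparisons (-1.27 in the stattic group, adjusted p = 0.00399, -0.81 in the IL-10 group, 0.0289, and -0.79 in the hemin group, 0.0313). Its call in the hemin group was lost when each vehicle library and replicates 1 and 2 of the hemin group were left out in turn (up to 0.118), without the libraries of steepest length trend (0.0586) and with the length trend corrected (0.082). In the IL-10 group it was lost when each vehicle library and replicates 1 and 2 of the IL-10 group were left out in turn (up to 0.114) and with that correction (0.0562), and in the stattic group in none of the alternatives run. Dusp6 (0.54, adjusted p = 0.433) and Spry2 (-0.23, adjusted p = 0.604), feedback genes of the same pathway also chosen after their values were seen, were not called in the hemin group. Other genes of these 2 families went both ways. In mean CPM, Dusp4 stood at 185 in the hemin group and 44.1 in the vehicle group, and Dusp5 at 82.6 and 5.74. Spry4 stood at 119 and 58.3, Spry1 at 32.4 and 54.6, and Spry3 at 5.88 and 9.27. These too were chosen after their values were seen.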

How the data were processed

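RNA-seq of 12 libraries was deposited as 1 table per library. Per the file headers, the authors' tables give an expected count, FPKM and a transcript length for each gene. Per the submitters' processing notes, the tools were Bowtie, Bowtie2, CASAVA, Cufflinks, HISAT, RSEM, StringTie and TopHat, without role or version, and the genome build and the use of strand in counting are not given in the sources used here. A gene absent from a library's table was taken as 0, and 99.1% of symbols matched the RefSeq table. Expected counts, as deposited, were rounded and tested with edgeR 4.0.16 (R 4.3.3; filterByExpr, TMM, robust quasi-likelihood fit, 1 mean per group over 12 libraries), with Benjamini-Hochberg adjustment over all 13967 tested genes. The fit was tested on simulated data. limma 3.58.1 and DESeq2 1.42.0 were alternatives. Count ratios have exact 95% intervals, covering counting error only. The 10 genes, the gene lists and the alternatives were chosen with earlier results of these data known. Named genes were the 10, up to 4 called genes of each pathway list by smallest adjusted p with hemin, and the 3 most alike genes of each of the 10 that averaged at least 5 CPM. The other genes named from the lists (Erbb4, Nrg2, Nrg3, Nrg4, Adam17, Adam10, Spred3, Shc1, Etv1, Dusp4, Dusp5, Dusp6, Spry1, Spry2, Spry3 and Spry4) were chosen after their values were seen. So were the markers given singly in CPM (Mbp, Cnp, Cspg4, Olig1, Olig2, Ttr, Col3a1, Slc1a2, Slc1a3 and Aldh1l1). Chi-square over degrees of freedom was 15.2 to 187.1 for replicate pairs, so none looked like 1 library deposited again. One gene of the oligodendrocyte marker list is not reported here and was left out of its sums. The labels do not say what a replicate number marks. Libraries that shared a number deviated from their group means together, at correlations of 0.37, 0.17 and 0.61 for the IL-10 against the hemin group and 0.35, 0.39 and 0.17 for the stattic against the hemin group. Each was above 0.1, so the numbers were taken as a possible pairing of these groups. The main tests and their intervals used no block in any comparison, and the fit with the replicate number as a block was an alternative. In the other 4 comparisons at least 1 correlation was below 0.1. Numbers that pair both groups with the hemin group would also pair them with each other, where replicate 2 gave -0.046. Libraries of different numbers were not compared, so the correlations do not show that the numbers mark pairs.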

Additional observations from a re-analysis of the deposited data

How the results depend on the processing

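Areg, Ereg and Errfi1 higher and Tgfa lower kept their direction against vehicle under all alternatives run, with the lost calls given in the report. The number of the 10 genes called with 1 library left out ranged from 2 to 5 higher with hemin, 2 to 4 with hemin and IL-10 and 2 to 4 with hemin, IL-10 and stattic, and 0 to 1 lower in each. The length trend correction called 0 of the 10 genes lower with hemin, IL-10 and stattic. Library totals in place of TMM moved all log2 changes against vehicle by -0.23, -0.13 and -0.10 in hemin with IL-10 and stattic, hemin with IL-10 and hemin.

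For hemin against vehicle, genes called higher numbered 1079 in limma on log2(FPKM + 1) and 803 to 2287 with 1 library left out, against 1639, and genes called lower numbered 2113 with only the 2 groups compared and 442 to 1969 with 1 library left out, against 1278. For hemin with IL-10, genes called higher numbered 948 in limma on log2(FPKM + 1), 2572 without the 2 libraries of steepest length trend and 724 to 2403 with 1 left out. Genes called lower there numbered 1916 with only the 2 groups, 1974 without those 2 libraries and 423 to 1824 with 1 left out. For hemin with IL-10 and stattic, genes called higher numbered 970 and 1287 in limma on log2(FPKM + 1) and log2(FPKM + 0.1), 958 with only the 2 groups and 916 to 2186 with 1 left out. Genes called lower numbered 2208 with library totals, 2406 and 2372 in the 2 limma fits, 692 with only the 2 groups and 692 to 1724 with 1 left out. Library totals gave 1414 higher and 2208 lower with hemin, IL-10 and stattic (2048 and 1424 with TMM), 1317 and 1665 with hemin and IL-10 (1696 and 1231), and 1395 and 1593 with hemin (1639 and 1278).

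In hemin with IL-10 against hemin, DESeq2 called 2 genes higher and 1 lower, and edgeR without the low-count filter 1 higher. In hemin with IL-10 and stattic against hemin, DESeq2 and edgeR without the filter called 1 higher each. The replicate block called 1 gene higher in each of these comparisons, and leaving out 1 library 0 to 1 higher. Against vehicle, where the numbers were not taken to pair the samples, the block called Btc with hemin, IL-10 and stattic (adjusted p = 0.0137) and with hemin (0.0126), and changed the call of none of the other 9.

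Of the lists with hemin, ligand release had 0 higher in limma-voom, in limma on log2(FPKM + 1) and without the 2 steep libraries, 1 with library totals and limma on log2(FPKM + 0.1), and 4 with only the 2 groups, and 1 lower with the length correction. Regulators of the receptors or their signal had 5 higher in DESeq2, with only the 2 groups, without the 2 steep libraries and with the length correction. They had 1 lower in limma-voom, 4 with only the 2 groups and 0 with the length correction. Adaptors and kinases had 0 higher with library totals, limma-voom and both FPKM fits, 2 without the steep libraries and 4 with the length correction. They had 7 lower in DESeq2 and with only the 2 groups, and 8 without the steep libraries. ERK-induced targets had 0 lower without the steep libraries and with the length correction. With 1 library left out, calls higher and lower ranged over 0 to 2 and 0 to 2 for release, 2 to 5 and 0 to 3 for regulators, 0 to 1 and 2 to 8 for adaptors, 11 and 0 to 1 for ERK-induced targets, and 1 to 2 higher for other ligands and receptors.

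Values near 0 changed sign. Egfr with hemin was -0.07 with library totals, -0.05 with the replicate block, -0.01 without the steep libraries, and -0.11 to 0.32 with 1 library left out. With 1 library left out, Egfr with hemin and IL-10 ranged from -0.33 to 0.14, Erbb3 with hemin, IL-10 and stattic from -0.07 to 1.87, and Ereg in hemin with IL-10 against hemin from -0.33 to 0.92. The cause of these changes was not tested. With 3 libraries a group, the 2 to 19 vehicle counts of Epgn, Ereg, Areg and Btc limit how well their folds are known.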
